A study of Mus musculus with 6 samples.

Results

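Cell adhesion receptor genes were compared between RUNX1-ETO9a-driven mouse acute myeloid leukemia (AML) cells with and without deletion of *Phf6*. The genes were the integrin alpha and beta subunits, the classical and related cadherins, the selectins with the ligand gene *Selplg*, and the ICAM genes with *Vcam1* and *Pecam1*. They were chosen by gene name among the protein-coding rows of the expression table, which gave 59 of 54532 genes: 18 integrin alpha genes, 8 integrin beta genes, 23 cadherin genes, 4 selectin or selectin ligand genes and 6 genes of the ICAM, VCAM and PECAM group. RNA-sequencing gave 3 libraries per group, numbered 1, 2 and 3 for *WT Phf6,RE9a* (called WT) and 11, 12 and 13 for *VC Phf6,RE9a* (called VC), and values keep that order throughout.

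Both groups came from male mice with the floxed *Phf6* allele (*Phf6* fl/y). In the VC group this allele was joined to Vav1-Cre, in which the Vav1 promoter drives the recombinase in blood cells, and the WT group had no Cre. Lineage-negative fetal liver cells of both were transduced with a retrovirus that carries RUNX1-ETO9a and GFP, the transformed cells were passed serially through male recipients, and GFP+ leukemia cells were sorted from bone marrow. Neither the passage nor the number of leukemias or mice behind the libraries is in the labels, so the p-values measure only the spread between these libraries. The age of the donors of these libraries is not in the labels, while the paper states an embryonic day for the fetal livers of this model.

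Integrins are receptors made of an alpha and a beta chain, and the chain pairing sets what is bound: matrix proteins, VCAM1, the ICAMs or fibrinogen. Selectins bind sugars on the partner cell and start leukocyte rolling, integrins then hold the cell to the endothelial ICAMs and VCAM1, and cadherins bind cadherins of the neighbouring cell through calcium. In bone marrow, the integrin made of the *Itga4* and *Itgb1* chains and its ligand VCAM1 are known for retaining blood progenitors, and the integrin of the *Itga2b* and *Itgb3* chains is the fibrinogen receptor of megakaryocytes and platelets.

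*Phf6*, the targeted gene, had 1044, 827 and 1142 counts in WT and 388, 314 and 331 counts in VC libraries (log2 fold change -1.66, standard error 0.13, adjusted p = 9.32e-05 by edgeR). *Phf6* reads thus remained in VC libraries, at 0.315 of the WT level, and their source was not tested. Library totals ran from 15675358 to 16817994 counts, and 14169 genes had enough counts to be tested. The first principal component held 80.98% of the variance and separated the groups. Among all genes tested, 21.5% were higher and 22.7% lower in VC cells at an adjusted p under 0.05, so a call alone was common in this comparison. In CPM, counts scaled to library size, the 6 haematopoietic markers summed to between 3575 and 3852 CPM in WT and between 2425 and 2778 CPM in VC libraries. The 3 lower ones were *Lcp1* (log2 fold change -1.59), *Vav1* (-0.54) and *Laptm5* (-0.38). *Coro1a* (-0.24), *Spi1* (0.20) and *Ptprc* (0.86) did not pass the test. *Ptprc*, which encodes the leukocyte antigen CD45, was read in every library (500, 180 and 386 against 961, 831 and 306 counts).

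Of the 59 adhesion genes, 30 had enough counts to be tested and 29 did not, of which 11 had 0 counts in every library. Of the 30 tested genes, 10 were higher, 7 were lower and 13 did not pass the test. The 10 and 7 genes stand beside the shares of 21.5% and 22.7% over all genes. The median log2 fold change of the tested adhesion genes was 0.42, against 0.013 over all genes tested. When at least 2-fold was required too, 9 adhesion genes were higher and 4 were lower, beside 9.95% and 11.5% of all genes. The groups did not overlap in CPM for 12 adhesion genes that were higher and 7 that were lower, beside 28.9% and 28.4% of all genes. The adhesion genes took 0.201% to 0.211% of all counts in WT and 0.281% to 0.299% in VC libraries. This rise came from *Itgb7* (mean 322 CPM in WT and 787 CPM in VC libraries) and *Itgb1* (mean 362 and 807 CPM). Without *Itgb7* and *Itgb1*, the share of the remaining adhesion genes was lower in every VC library than in any WT library. In sorted bulk cells, fewer cells that express a gene and less RNA per cell cannot be told apart.

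**Figure D1:**
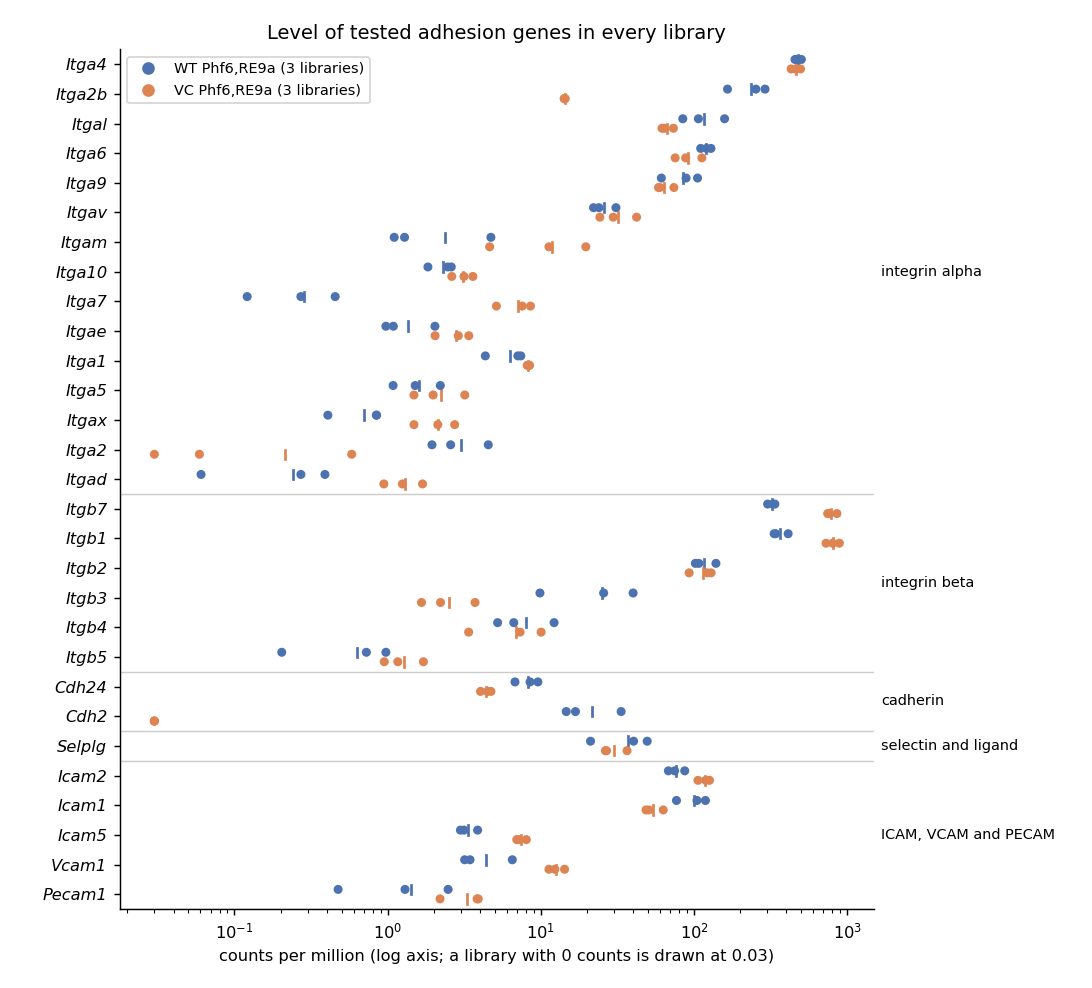
CPM (log axis) of 29 of the 30 tested adhesion genes, with 1 point per library, a short line at each group mean, and 3 libraries per group. A library with 0 counts is drawn at the left end. *Itgb7*, *Itgb1* and *Itga4* lie furthest to the right in both groups, *Itga2b* points lie far apart, and *Itgam* points of the groups overlap.

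Sequence before the annotated transcription start was taken from RefSeq (GRCm38.p6) for 36 of the 59 genes, and 16 tested genes had such a window. The 250 bases before the start are shown for *Itgam*, a myeloid integrin gene that was higher, and *Itga4*, whose level stayed within the spread of replicates. Each is written 5′ to 3′ on the strand of its gene, and capitals mark TGTGGT, the core letters of RUNX motifs, or GAGGAAG, letters of PU.1 motifs, found on either strand.
Itgam (chr7:128062390-128062639, plus strand): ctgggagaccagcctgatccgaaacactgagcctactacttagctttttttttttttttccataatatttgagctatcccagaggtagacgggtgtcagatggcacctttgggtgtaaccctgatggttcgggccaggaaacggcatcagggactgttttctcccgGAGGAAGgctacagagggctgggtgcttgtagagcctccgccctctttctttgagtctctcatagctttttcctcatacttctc
Itga4 (chr2:79255176-79255425, plus strand): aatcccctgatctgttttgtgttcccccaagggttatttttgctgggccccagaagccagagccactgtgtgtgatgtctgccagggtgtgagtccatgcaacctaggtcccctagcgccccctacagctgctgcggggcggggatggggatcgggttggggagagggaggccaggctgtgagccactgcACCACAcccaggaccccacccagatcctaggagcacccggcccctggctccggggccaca

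Over the whole window of 300 bases, which reaches 50 bases past the start, TGTGGT was found on either strand in 2 of the 16 windows of tested adhesion genes (*Itga4* and *Itgax*), and in 16.8% of all 32851 windows. GAGGAAG was found in 4 of the 16 (*Itga2b*, *Itgam*, *Itgav* and *Itgb7*) and in 13.6% of all windows. An NF-kB-like pattern, GGG followed after 5 bases by CC, was found in 11 of the 16 and in 50.8% of all windows. Of the genes with GAGGAAG, *Itga2b* was lower, *Itgam* and *Itgb7* were higher, and *Itgav* did not pass the test. The RefSeq start of *Itga2b* lies inside the deposited gene model, so its window overlaps that model. The *Itga9* window (chr9:118711442-118711741) lies wholly inside its deposited model, which starts at 118606690. These matches describe letters, not binding.

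Levels between genes were compared in FPKM, the authors' counts per transcript length and library size, and on this scale *Itgb7* and *Itgb1* were the most abundant adhesion genes. *Itgb7* and *Itgb1* rose and *Itgb3* fell, while *Itgb2*, *Itgb4* and *Itgb5* did not pass the test. *Itgb7* (chr15:102215995-102231944), whose chain pairs with the *Itga4* or *Itgae* chain and binds MAdCAM-1 or E-cadherin, had 5043, 4969 and 4997 counts in WT and 12631, 13030 and 14419 counts in VC libraries. All 3 VC libraries lay above the WT libraries with a wide gap. Its log2 fold change was 1.29 (standard error 0.10, adjusted p = 9.19e-05), and its FPKM went from 116 ± 6.73 to 280.5 ± 20.3 (SD, n = 3 libraries each), the highest of all adhesion genes in both groups.

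*Itgb1* (chr8:128685654-128733200) encodes the beta chain shared by the receptors for fibronectin, collagens, laminins and VCAM1. It had 5262, 4917 and 6800 counts in WT and 13615, 12481 and 14958 counts in VC libraries, and the groups did not overlap. Its log2 fold change was 1.15 (standard error 0.12, adjusted p = 0.000341). The ratio of *Itgb1* to *Itgb7* FPKM was 0.768 ± 0.136 in WT and 0.695 ± 0.0414 in VC libraries, and the groups overlapped in this ratio.

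*Itga4* (chr2:79255426-79333123) encodes the alpha chain that pairs with either of these beta chains. It had 7307, 6727 and 8294 counts in WT and 7292, 8508 and 7725 counts in VC libraries. The groups overlapped, and its log2 fold change was -0.05 (standard error 0.09, adjusted p = 0.704), a difference that turned sign to 0.0055 without VC replicate 11. The ratio of *Itga4* to *Itgb1* FPKM was 0.387 ± 0.0269 and 0.169 ± 0.0264 in the groups, and that of *Itga4* to *Itgb7* was 0.295 ± 0.0310 and 0.117 ± 0.0118. Neither ratio overlapped between the groups. With 3 libraries against 3, the smallest p that an exact 2-sided permutation test of such a ratio can give is 0.1.

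*Itgb2* (chr10:77530252-77565708) encodes the beta chain of the leukocyte integrins, which bind ICAMs and complement fragments. It had 1572, 2049 and 1777 counts in WT and 2190, 2095 and 1564 counts in VC libraries. The groups overlapped (log2 fold change -0.02, standard error 0.16, adjusted p = 0.941). Its alpha partners did not follow a common direction: *Itgal* was lower, and *Itgam*, *Itgax* and *Itgad* were higher.

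**Figure D2:**
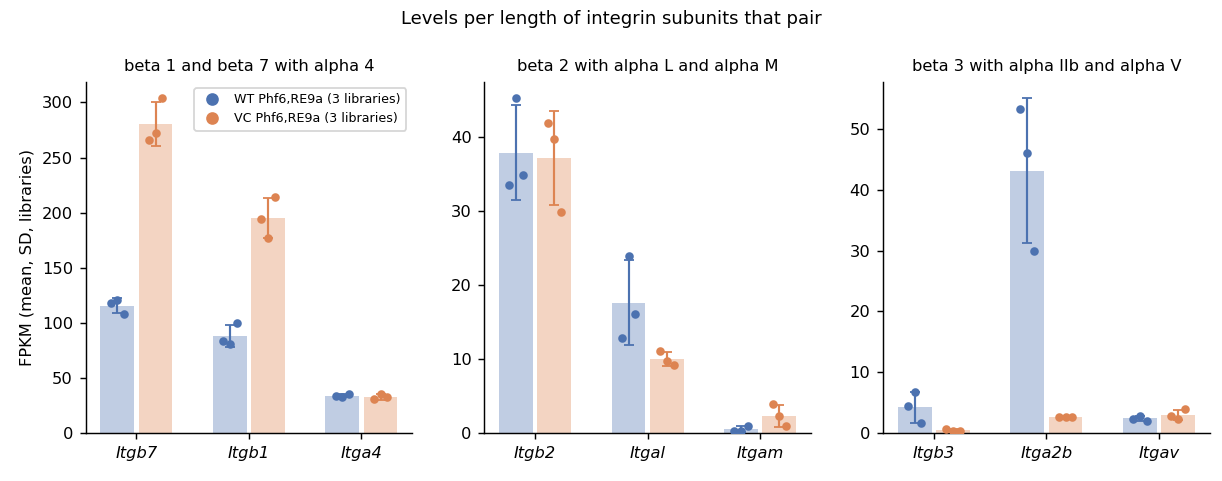
FPKM of beta chain genes and of alpha chain genes that pair with them, in 3 panels that each have a scale of their own and start at 0. Bars are means of 3 libraries, whiskers are SDs and points are libraries. *Itgb7* and *Itgb1* bars are higher in VC cells beside *Itga4* bars of like height, *Itgal* is lower beside *Itgb2* bars of like height, and *Itga2b* and *Itgb3* are both lower.

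*Itgal* (chr7:127296260-127335138), the alpha chain of LFA-1, which binds ICAMs, had 1301, 2333 and 1765 counts in WT and 1242, 1101 and 1040 counts in VC libraries. Its log2 fold change was -0.81 (standard error 0.21, adjusted p = 0.0173). WT replicate 1 lay close to the VC libraries, and the call was lost without replicate 12 (adjusted p = 0.0597) or replicate 13 (adjusted p = 0.0549). The ratio of *Itgal* to *Itgb2* FPKM was 0.458 ± 0.0723 in WT and 0.272 ± 0.0333 in VC libraries.

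*Itgam*, *Itgax* and *Itgad* lie next to each other on the same strand of chromosome 7, with gaps of 11055 and 3718 bases, and encode the alpha chains of Mac-1, of CD11c integrin and of CD11d integrin, which mark myeloid cells. *Itgam* had 17, 19 and 78 counts in WT and 333, 194 and 78 counts in VC libraries. Replicate 3 of WT and replicate 13 of VC met at the same count, so the groups overlapped. The log2 fold change was 2.31 (standard error 0.68, adjusted p = 0.0272), and it passed the test in 2 of the 6 fits that left out a library, with a range from 1.74 without replicate 11 (adjusted p = 0.0950) to 3.29 without replicate 3 (adjusted p = 0.00881). The call was also lost without replicate 1 (adjusted p = 0.0794), replicate 2 (adjusted p = 0.0730) or replicate 12 (adjusted p = 0.0615). A share of 66.3% of the 50-base stretches of *Itgam* transcripts is also in the overlapping gene model *Gm49368*, which had at most 2 counts in a library, so the level of *Itgam* is uncertain.

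*Itgax* had 13, 6 and 14 counts in WT and 36, 47 and 25 in VC libraries (log2 fold change 1.58, standard error 0.40, adjusted p = 0.0153). The call was lost without replicate 12 (adjusted p = 0.0633). *Itgad* had 6, 4 and 1 counts in WT and 16, 29 and 21 in VC libraries (log2 fold change 2.41, standard error 0.56, adjusted p = 0.0101). Both genes were barely read. Neither overlapped between the groups, but *Itgad* was kept for the test by its VC counts alone, so this gap adds no support for its rise. *Itgad* shares 19.7% of its 50-base stretches with other genes, *Itgax* among them, so reads of these neighbours may not be fully separated.

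Of the granulocyte and monocyte maturation markers, 13 of 14 rose and 1 fell, and their summed CPM ranged from 348 to 734 in WT and from 1244 to 4315 in VC libraries. Replicate 3 was the highest of the WT libraries in this sum and replicate 13 the lowest of the VC libraries, as for *Itgam*. *Itgax* had the same order at these ends, though with 14 counts in replicate 3 beside 13 in replicate 1. In contrast, *Itgad* had its lowest WT count in replicate 3 and its lowest VC count in replicate 11. The macrophage and dendritic cell markers summed to between 48.8 and 72.3 CPM and between 69.3 and 113 CPM, with 2 of 13 higher. The part of these cell states in the changes of the myeloid integrins was not tested.

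*Itga2b* (chr11:102453297-102470122), the alpha chain of the platelet fibrinogen receptor known as CD41, showed the largest fall among the 10 adhesion genes of highest FPKM. It had 4479, 3734 and 2734 counts in WT and 241, 244 and 243 counts in VC libraries. The VC libraries were nearly equal and all far below the WT libraries, and the log2 fold change was -4.05 (standard error 0.21, adjusted p = 2.84e-05). *Itgb3* (chr11:104608000-104670476), its beta chain, had 396, 590 and 163 counts in WT and 63, 38 and 28 counts in VC libraries. The WT libraries were spread widely but stayed above all VC libraries (log2 fold change -3.31, standard error 0.54, adjusted p = 0.00223). *Itgav*, the other alpha partner of *Itgb3*, had 369, 456 and 365 counts against 503, 417 and 710 counts, which overlapped (log2 fold change 0.32, adjusted p = 0.275).

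Markers of megakaryocytes and platelets moved in both directions beside *Itga2b* and *Itgb3*. Their summed CPM was 398 to 483 in WT and 241 to 254 in VC libraries. Of 12 markers, 3 were higher and 2 lower, and *Gp1bb* was at 0 in every library. The lower ones, *Nbeal2* (6300, 5419 and 5039 against 3305, 3241 and 3259 counts, adjusted p = 0.000746) and *Gp1ba* (1064, 899 and 1318 against 345, 454 and 437 counts, adjusted p = 0.000196), held most of the sum. The higher ones were *Treml1* (33, 122 and 183 against 348, 587 and 330 counts, adjusted p = 0.0239), *Gp9* (3, 2 and 0 against 16, 21 and 24 counts) and *Clec1b* (0, 3 and 1 against 12, 11 and 11 counts). The mast cell and basophil markers, of which 11 of 12 were lower, summed to between 19469 and 30767 CPM in WT and between 4978 and 5429 CPM in VC libraries. The part of these lineages in the fall of *Itga2b* and *Itgb3* was not tested.

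As a share of the summed FPKM of all integrin alpha genes, *Itga2b* went from 34.5 ± 6.96% to 3.58 ± 0.205% and *Itga4* from 27.7 ± 4.38% to 45.0 ± 1.56%. The alpha sum went from 124 ± 13.2 to 72.5 ± 4.26 FPKM, while the beta sum went from 247 ± 6.60 to 514 ± 31.0 FPKM. The groups overlapped in neither sum. These sums of mRNA levels do not give the number of receptors on the cell.

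*Itga2*, the collagen-binding alpha chain, fell from 30, 38 and 75 counts to 1, 10 and 0 counts (log2 fold change -3.77, standard error 0.85, adjusted p = 0.00922). Replicate 12 held nearly all counts of the VC group, and without it the log2 fold change was -6.34. Its neighbour *Itga1*, 20995 bases away on chromosome 13 and also a collagen receptor chain, had 64 to 117 counts in WT and 138 to 145 counts in VC libraries and did not pass the test (log2 fold change 0.40, adjusted p = 0.215). *Itga7*, a laminin-binding chain best known from muscle, rose from 7, 4 and 2 counts to 128, 88 and 144 counts (log2 fold change 4.62, standard error 0.45, adjusted p = 0.000222), the largest rise of all tested adhesion genes. Its VC counts alone kept *Itga7* in the test.

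Alpha chains that did not pass the test included both remaining genes of the 10 with the highest FPKM. *Itga6*, a laminin receptor chain, had 1703, 1777 and 2132 counts in WT and 1276, 1931 and 1484 counts in VC libraries (log2 fold change -0.38, adjusted p = 0.0681), and passed without replicate 12 (adjusted p = 0.0161). *Itga9*, which like the *Itga4* chain binds VCAM1, had 1367, 1554 and 1011 counts against 993, 1268 and 1007 counts (log2 fold change -0.41, adjusted p = 0.127), and passed without replicate 3 (adjusted p = 0.0119). Both genes overlapped in counts between the groups. *Itgae*, which pairs with the *Itgb7* chain, had 15, 30 and 18 counts against 49, 35 and 57 counts (log2 fold change 1.02, adjusted p = 0.0602), passed without replicate 2 (adjusted p = 0.0215), and is overlapped on the opposite strand by *Haspin*, which had up to 380 counts in a library. *Itga5* and *Itga10*, and the beta chains *Itgb4* and *Itgb5*, had at most 188 counts in a library, with log2 fold changes from -0.22 to 0.99. *Itga1*, *Itga10* and *Itgae* were higher in VC libraries with no overlap in CPM, though none passed the test. Of the 50-base stretches of *Itga10*, 30.6% are shared with *Gm42957* on the same strand, and *Itga1* overlaps *Pelo*, which had up to 77 counts in a library, so these levels are uncertain too.

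**Figure D3:**
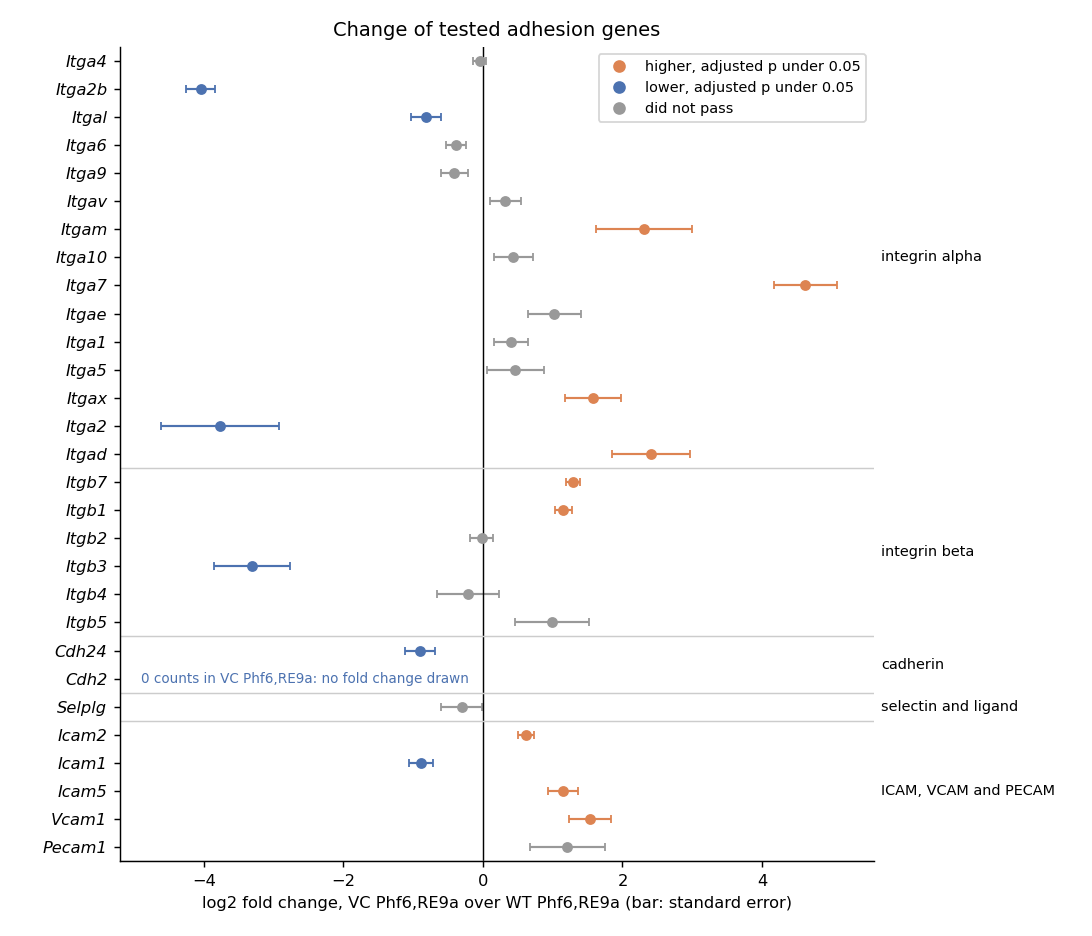
Log2 fold change of VC over WT cells for 29 of the 30 tested adhesion genes, with the standard error as a bar and 3 libraries per group. Of those drawn, 9 are higher, 7 are lower and 13 did not pass an adjusted p under 0.05; *Cdh2* has no point because a group had 0 counts.

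Most cadherin genes had too few counts to be tested. Of 23 cadherin genes, 21 were not tested, and 9 of these had 0 counts in all libraries. Both tested genes fell. *Cdh2*, which encodes N-cadherin, had 515, 248 and 242 counts in WT and 0 counts in each VC library. Set against a floor of 3 counts per library, its CPM was at least 121-fold lower in VC cells (at least 88.5-fold without WT replicate 1, the highest library). This bound covers counting error only, and the adjusted p was 0.000285.

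*Cdh24* had 131, 141 and 112 counts in WT and 80, 77 and 68 counts in VC libraries (log2 fold change -0.91, standard error 0.22, adjusted p = 0.0121), with no overlap. *Cdh1*, the E-cadherin gene, had 1 to 9 counts in every library and *Cdh5*, the VE-cadherin gene of endothelium, 1 to 12 counts. *Cdh23* had 2, 1 and 2 counts against 12, 13 and 3 counts and *Cdh13* at most 13 counts. The count filter left these genes out of the test.

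*Selplg*, which encodes the selectin ligand PSGL-1, had 762, 311 and 666 counts against 619, 453 and 452 counts, and the groups overlapped (log2 fold change -0.31, standard error 0.29, adjusted p = 0.431). It was lower and passed the test without replicate 2 (log2 fold change -0.59, adjusted p = 0.0304). The endothelial and platelet selectins were hardly read: *Sele* had at most 2 and *Selp* at most 20 counts in a library.

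The ICAM genes split in direction. *Icam1* (chr9:21015985-21028817), the main ligand of LFA-1, fell from 1829, 1541 and 1269 counts to 1066, 834 and 853 counts (log2 fold change -0.89, standard error 0.17, adjusted p = 0.00498). *Icam2* (chr11:106377656-106388075), also a ligand of LFA-1, rose from 1048, 1102 and 1437 counts to 2019, 1820 and 2124 counts (log2 fold change 0.61, standard error 0.12, adjusted p = 0.0042). Neither gene overlapped between the groups, and both changes were under 2-fold.

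*Icam5*, a brain-enriched member, lies on chromosome 9 beyond *Icam4*, with gaps of 555 bases from *Icam1* to *Icam4* and 1477 bases from *Icam4* to *Icam5*. It rose from 46, 57 and 52 counts to 118, 138 and 120 counts (log2 fold change 1.15, standard error 0.22, adjusted p = 0.00455), while *Icam4* had 0 counts throughout. The neighbours *Icam1* and *Icam5* therefore moved in opposite directions. Of the 50-base stretches of *Icam5*, 22.9% are shared with antisense gene models there, and 13.1% of those of *Icam1*, so these levels depend on how the authors' counting used strand.

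*Vcam1*, the ligand of the *Itga4* and *Itgb1* integrin, rose from 49, 96 and 57 counts to 242, 194 and 208 counts (log2 fold change 1.53, standard error 0.30, adjusted p = 0.00503), with no overlap. Its level per length stayed low, at 1.41 ± 0.166 FPKM in VC libraries (SD, n = 3). *Pecam1*, an adhesion gene of endothelium and leukocytes, had 20, 7 and 41 counts against 65, 67 and 37 counts, which overlapped (log2 fold change 1.21, standard error 0.53, adjusted p = 0.103). It passed without replicate 3 (log2 fold change 1.88, adjusted p = 0.0276).

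Endothelial markers were given beside these genes because endothelium is known for *Vcam1*, *Icam2* and *Pecam1*. Their summed CPM was 64.6 to 90.5 in WT and 88.3 to 100.3 in VC libraries, with 5 of 12 higher and 1 lower. The markers that rose were *Eng*, *Tek*, *Esam*, *Stab2* and *Egfl7*. *Eng*, which encodes endoglin, rose from 4, 3 and 3 counts to 232, 236 and 268 counts (log2 fold change 6.03, adjusted p = 1.92e-05), *Tek*, which encodes the angiopoietin receptor TIE2, had 0 counts in each WT library and 72, 217 and 27 counts in VC libraries (adjusted p = 0.00567), and *Esam* rose by a log2 fold change of 2.44 (adjusted p = 0.000847). *Plvap* fell from 559, 535 and 957 counts to 306, 236 and 305 counts (log2 fold change -1.39, adjusted p = 0.00182). *Emcn* was at 0 in every library, *Cldn5* and *Mmrn2* had at most 1 count in a library, and *Kdr* had 7 to 23 counts and did not pass the test (adjusted p = 0.745).

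Marrow stroma markers summed to at most 7.22 CPM in a library, with 1 of 12 higher, 1 lower and *Col3a1* at 0. The higher one was *Cxcl12*, a chemokine gene of marrow stroma, which rose from 12, 4 and 13 counts to 49, 67 and 58 counts (log2 fold change 2.45, adjusted p = 0.00235), as *Vcam1* did, and the lower one was *Pdgfrb*, with 74, 12 and 11 against 4, 9 and 3 counts. Erythroid markers, 9 of 9 of which rose, summed to between 1498 and 2274 CPM in WT and between 5269 and 6250 CPM in VC libraries. Of 8 B cell markers, 4 were tested and all 4 rose. The B cell sum was 0.746 to 1.69 CPM in WT and 9.51 to 29.1 CPM in VC libraries. T cell markers (1 of 9 higher, 1 lower) summed to 9.22 to 13.4 CPM in WT and 12.6 to 15.8 CPM in VC libraries. The part of admixed cells in the rise of *Vcam1* and *Icam2* was not tested.

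Genes around the receptors were followed in 6 lists of 141 measured genes, of which 100 were tested, 33 were higher and 26 were lower, beside 21.5% and 22.7% of all genes. The median log2 fold change over the lists was -0.03. Of 15 tested integrin activators, which link the beta chain tail to the cytoskeleton or carry signals to it, 4 were higher and 2 lower. *Fermt3*, the kindlin of blood cells (11033, 10808 and 10975 against 11592, 12485 and 11153 counts, log2 fold change -0.03, adjusted p = 0.837), and *Tln1*, which encodes talin (log2 fold change -0.25, adjusted p = 0.0710), had the highest FPKM and did not pass the test. *Rassf5*, a RAP1 effector, fell from 1233, 1414 and 1456 counts to 794, 728 and 865 counts (log2 fold change -0.91, standard error 0.11, adjusted p = 0.000528), whereas *Sharpin*, an inhibitor of integrin activation, and *Skap2*, an adaptor, rose by log2 fold changes of 0.38 and 0.46.

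Of 28 tested genes of the adhesion complex and outside-in signalling, 10 were higher and 9 lower. *Src*, the tyrosine kinase, fell from 1141, 1190 and 901 counts to 192, 201 and 169 counts (log2 fold change -2.66, standard error 0.17, adjusted p = 4.44e-05). *Ptk2b*, the focal adhesion kinase relative Pyk2, fell by 1.70 on the log2 scale (adjusted p = 9.33e-05), and *Tgfb1i1*, which encodes the adhesion adaptor Hic-5, rose from 44, 34 and 38 counts to 269, 317 and 325 counts (log2 fold change 2.84, adjusted p = 5.87e-05). The genes of highest FPKM, *Vasp* and *Lcp2*, were lower, with log2 fold changes of -0.57 and -0.90. *Fgr*, a kinase of the SRC family named after its values were seen, rose from 38, 35 and 75 counts to 338, 253 and 79 counts (log2 fold change 2.06, adjusted p = 0.0155).

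**Figure D4:**
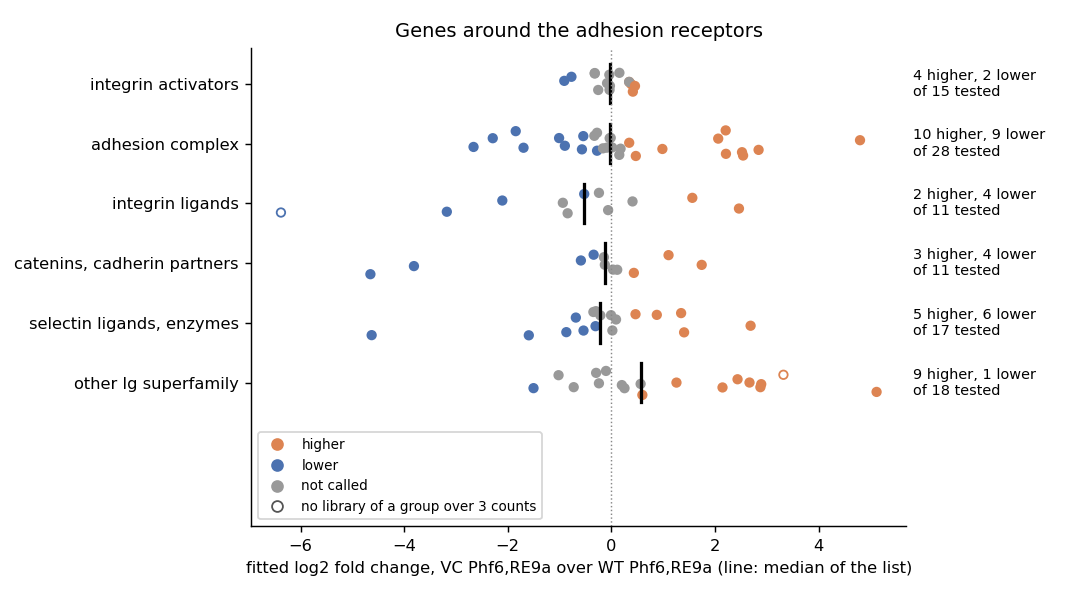
Fitted log2 fold change of the tested genes in 6 lists around the adhesion receptors, with 1 point per gene, a line at each list's median, and the number higher and lower at the right. Open points are genes with no library of a group over 3 counts, whose fitted value is no measured size; every list holds genes that rose and genes that fell.

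Of 29 matrix and plasma ligands of integrins, 18 had too few counts to be tested, and of the 11 tested, 2 were higher and 4 lower. *Mfge8*, which encodes an RGD-bearing bridge between integrins and dying cells, fell from 2312, 2044 and 1935 counts to 536, 607 and 460 counts (log2 fold change -2.10, standard error 0.13, adjusted p = 4.58e-05). *Col4a2*, a basement membrane collagen gene, fell from 32, 58 and 97 counts to 11, 5 and 6 counts (log2 fold change -3.18, adjusted p = 0.00204), and *Ltbp1*, a latent TGF-beta binding protein gene, had 54, 107 and 16 counts against 1, 1 and 0 counts (adjusted p = 0.0023). *Tgfb1* fell by 0.52 on the log2 scale (adjusted p = 0.00448), and *Lamc1*, a laminin chain gene, did not pass the test (log2 fold change -0.24, adjusted p = 0.132).

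Of 11 tested catenins and cadherin partners, 3 were higher and 4 lower. *Ctnna1*, the alpha-catenin gene that ties cadherin complexes to actin, fell from 7322, 6423 and 6880 counts to 4783, 5259 and 4957 counts (log2 fold change -0.59, standard error 0.09, adjusted p = 0.00165). *Plekha7*, a junction protein gene, fell from 79, 114 and 66 counts to 7, 2 and 2 counts (log2 fold change -4.65, adjusted p = 0.00043), and *Ctnnal1*, an alpha-catenin relative, rose by a log2 fold change of 1.10 (adjusted p = 0.00148). *Adam10*, a protease that sheds cadherins, rose by 0.43 (log2 fold change, adjusted p = 0.00748).

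Among 17 tested selectin ligands and the enzymes that build their sugars, 5 were higher and 6 lower. *B4galt1*, a galactosyltransferase gene, fell (log2 fold change -0.87, adjusted p = 0.000397), while the sialyltransferase gene *St3gal6* (log2 fold change 1.40, adjusted p = 0.000932) and the fucosyltransferase gene *Fut4* (log2 fold change 2.69, adjusted p = 0.00184) rose. *Fut4* had 36, 110 and 152 counts against 547, 739 and 799 counts. *Fut7*, the other leukocyte fucosyltransferase gene, named here after its values were seen, fell from 95, 104 and 131 counts to 37, 54 and 28 counts (log2 fold change -1.59, adjusted p = 0.00373). Of the genes with the highest FPKM, *Cd24a*, a P-selectin ligand gene, rose (log2 fold change 0.47, adjusted p = 0.0365) and *Spn*, which encodes CD43, did not pass the test (log2 fold change -0.35, adjusted p = 0.0964).

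The last list held further adhesion molecules, mostly of the immunoglobulin superfamily, together with *Cd99l2* and *Itgb2l* of other families. Of its 18 tested genes, 9 were higher and 1 was lower, with a median log2 fold change of 0.58. The gene that fell was *Cd48*, a ligand of CD2-family receptors, from 1336, 1652 and 1570 counts to 600, 620 and 541 counts (log2 fold change -1.50, standard error 0.12, adjusted p = 9.09e-05). *Nectin2* rose from 182, 173 and 249 counts to 519, 533 and 517 counts (log2 fold change 1.26, adjusted p = 0.000364), and *Bcam*, which encodes a laminin-binding glycoprotein of red cells, from 4, 1 and 2 counts to 73, 56 and 149 counts (log2 fold change 5.12, adjusted p = 0.000529). *Bsg*, which encodes basigin, rose by a log2 fold change of 0.60 (adjusted p = 0.00101) and had the highest FPKM of the list.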

How the data were processed

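Values of 3 WT and 3 VC libraries were read from the deposited table of 54532 genes, which gives the authors' raw, whole-number counts for each gene and their FPKM values for each library. Columns with the authors' own comparison (mean signal, log2 fold changes and p-values) are also deposited and were not used. The submitters' processing notes name Bowtie 0.12.0 and mm8, but all 59 adhesion genes have the coordinates of GENCODE M21, and coordinates here are the deposited ones, read as GRCm38. The counting tool, the strand setting and the treatment of shared reads are not given in the sources used here.

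In R 4.3.3, counts were filtered (filterByExpr), scaled by TMM and compared by the quasi-likelihood test of edgeR 4.0.16 over the 14169 genes kept, with Benjamini-Hochberg adjustment and a threshold of 0.05, which gave every adjusted p above. CPM are counts scaled by the TMM library size, and 3 counts were at most 0.204 CPM. No libraries were duplicates: within groups the chi-square per gene ran from 11.7 to 45.2, above counting noise. Alternatives were DESeq2 1.42.0, limma 3.58.1 on log2(FPKM + 1) and log2(FPKM + 0.1), RLE size factors, no filter, at least 10 counts in every library, a 2-fold minimum and leaving out each library. The fit was also run on simulated data with 200 changed genes. These were far fewer than the genes called here, so that run did not test the fit under changes this broad. Figures used matplotlib 3.10.9 in Python 3.11.15.

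The members, gene lists and tests were chosen with earlier results of these data known. Counts per library were given for genes with an adjusted p under 0.05, a log2 change of at least 1 and at least 1 CPM in a group, for the 10 genes of highest FPKM and for their receptor partners. In each list, the 3 genes with the smallest p and the 2 with the highest FPKM were named. Of the tested adhesion genes, 1 that the counts include is not reported here by name.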

Additional observations from a re-analysis of the deposited data

How the results depend on the processing

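The calls of all 30 tested adhesion genes held under RLE size factors, no count filter, DESeq2 and limma on either FPKM scale, with the same 10 higher and 7 lower in number. Over all genes, these settings gave 2945 to 3089 higher and 3115 to 3409 lower calls. With at least 10 counts in every library, 23 adhesion genes could be tested, and *Itgae* passed (adjusted p = 0.0457). A minimum of 2-fold left 1410 higher and 1625 lower calls over all genes, 4 lower adhesion genes, and 13 lower genes of the pathway lists. Leaving out a library gave 8 to 11 higher and 6 to 8 lower adhesion genes. Over all genes, the same fits gave 2179 to 3132 higher and 2511 to 3338 lower calls. Genes near no change turned sign: *Itga4* ranged from -0.10 to 0.0055, *Itgb2* from -0.11 to 0.12 and *Itgb4* from -0.59 to 0.21 on the log2 scale. The calls of *Itgal*, *Itgam* and *Itgax* each depended on the libraries named beside them in the report. On log2(FPKM + 1), changes of weakly read genes were smaller by construction (*Itgad* 0.28, *Itga2* -0.46). No paired analysis was possible because the replicate numbers 1 to 3 and 11 to 13 are not shared between the groups. Low counts limit *Itga2*, *Itga7*, *Itgad*, *Itgax*, *Pecam1* and the 29 untested genes. For *Itga7* and *Itgad* only the VC group, and for *Itga2* and *Cdh2* only the WT group, held enough counts for the filter.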
